A study of Mus musculus with 12 samples.

Results

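The G1 cyclins, their kinase Cdk6 and the CDK inhibitors were described in RNAseq of the mouse line MPC2 after FG-4592. The 10 genes, Ccnd1, Ccnd2, Ccnd3, Ccne1, Ccne2, Cdk6, Cdkn1a, Cdkn1b, Cdkn1c and Cdkn2a, were taken by symbol from the 56350 genes of the count table, and 8 of them had enough counts to be tested. MPC2 is 1 clone of conditionally immortalized mesenchymal stem cells, so that every library shares that origin. Vehicle-treated MSCs were undifferentiated cells kept at 33 °C, the temperature at which the line proliferates, and given DMSO for 48 hours. FG-4592-treated MSCs received 50 µM FG-4592 (Roxadustat), an inhibitor of the HIF prolyl hydroxylases, for the same 48 hours. Vehicle-treated and FG-4592-treated osteocytes were MPC2 cells held for 3 weeks at 37 °C with beta-glycerophosphate and ascorbic acid before the same treatments. Each of the 4 conditions had 3 libraries. Temperature, media and culture time changed together with differentiation and cannot be told apart.

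Cells commit to DNA replication in G1. D-type cyclins, made in answer to growth factors, bind CDK4 or CDK6 and begin to phosphorylate the retinoblastoma protein, after which E2F factors induce the E-type cyclins that activate CDK2. The Cip/Kip proteins p21 (Cdkn1a), p27 (Cdkn1b) and p57 (Cdkn1c) bind cyclin-CDK complexes and hold CDK2 in check, whereas the INK4 protein p16, made with p19ARF from Cdkn2a, binds CDK4 and CDK6 alone. Cell cycle exit accompanies the terminal differentiation of bone cells, and p21 is best known as a target of p53.

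FG-4592 moved the G1 genes in both directions and differently in the 2 cell types. In MSCs the cyclin E2 gene Ccne2 rose most (2.07-fold), and Ccnd1, Cdk6, Cdkn1a and Cdkn1b rose by smaller amounts. In osteocytes the inhibitor genes Cdkn1a and Cdkn1b rose most (1.92-fold and 1.91-fold), while the cyclin E1 gene Ccne1 fell to 0.447 of its vehicle level. Without FG-4592, Cdkn1a in osteocytes stood at 0.497 of its level in MSCs. Cdkn1c and Cdkn2a had almost no counts in any condition.

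Library totals ran from 52829185 to 68108470 counts, and log2 levels of all genes correlated between libraries of a condition at r from 0.981 to 0.991. Levels are given as CPM, the count of a gene scaled by its library's TMM-normalized total. A count of 0 allows up to 3 counts, a floor at 0.0447 to 0.0545 CPM that covers counting error only. Differences were tested in edgeR with its quasi-likelihood test and a false discovery rate (FDR) over 16484 genes. A gene is said to rise or fall at an FDR under 0.05, and to be called when its log2 fold change also exceeded 1 in size, the cutoffs of the study. As a check of treatment, 5 of 6 HIF target genes (Slc2a1, Pdk1, Vegfa, Ankrd37, Egln3 and Bnip3) were called higher with FG-4592 in MSCs and 6 of 6 in osteocytes. Labels do not say whether libraries of a condition came from separate cultures, so that p-values measure the spread between libraries, which may be technical. In bulk RNA a change in the share of cycling cells and a change of RNA per cell cannot be told apart.

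With FG-4592 in MSCs, 1 of the 8 tested genes was called (Ccne2, higher), beside 9.29% of all genes tested. By FDR alone 6 moved, beside 38.1% of all genes, 5 of them higher (17.6% of all genes) and 1 lower (20.4%). In osteocytes FG-4592 moved all 8 by FDR alone, beside 43.8% of all genes, 5 higher (21.9%) and 3 lower (22%), and 1 was called (Ccne1, lower) beside 10.5%. The median size of the log2 fold change of the 8 genes was 0.33 in MSCs and 0.64 in osteocytes, against 0.29 and 0.32 over all genes.

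Between osteocytes and MSCs in vehicle, 1 of 8 was called (Cdkn1a, lower) beside 15.9% of all genes, and 5 passed the FDR beside 51%, 1 higher (26% of all genes) and 4 lower (24.9%). Between the FG-4592-treated cells 1 was called (Ccne1, lower) beside 18.3%, and 7 passed the FDR beside 55.8%, 2 higher (30.5%) and 5 lower (25.3%). Osteocyte and MSC responses were also set against each other (an interaction term), where 0 were called beside 5.01% of all genes and 5 passed the FDR in edgeR beside 24.3%, 2 higher (13.3%) and 3 lower (11%). DESeq2 also called 0 there, and 6 had an unadjusted edgeR p under 0.05. The share called was near the background in each comparison of 2 conditions, so that the calls say nothing particular of these genes. These comparisons reuse the same 12 libraries and are not independent of each other.

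**Figure D1:**
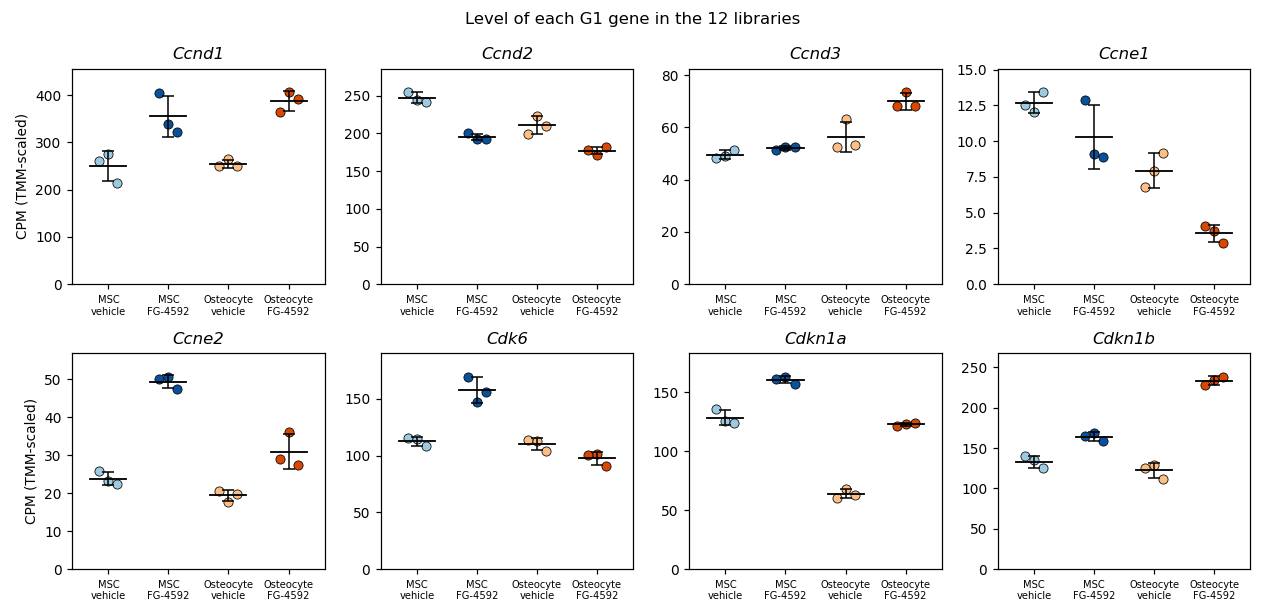
Level of the 8 tested G1 genes in each of the 12 libraries, in CPM after TMM scaling on a linear axis from 0. Points are libraries, long bars the mean and whiskers the SD of 3 libraries, and Ccne1 in FG-4592-treated osteocytes (2.89 to 4.06 CPM) and Ccne2 in FG-4592-treated MSCs (47.4 to 50.7 CPM) stand clear of the other conditions.

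Among the D-type cyclins, Ccnd1 (chr7:144929931-144939925, minus strand, mm10, 5 merged exons) encodes cyclin D1, the member most closely tied to mitogen signals. Its level was 260.0, 275.4 and 213.8 CPM in vehicle-treated MSCs and 404.1, 338.9 and 323.0 CPM in FG-4592-treated MSCs. Osteocytes had 250.4, 264.2 and 249.9 CPM with vehicle and 364.7, 407.6 and 391.2 CPM with FG-4592. All 6 treated libraries lay above all 6 vehicle libraries, and within a treatment the cell types overlapped. The log2 fold change with FG-4592 was 0.51 (SE 0.0885, edgeR FDR 0.000236) in MSCs and 0.61 (SE 0.0886, FDR 3.33e-05) in osteocytes. The responses did not differ past the threshold (0.10, 95% interval -0.17 to 0.36, FDR 0.631), and neither did vehicle-treated osteocytes and MSCs (0.03, 95% interval -0.16 to 0.22). Ccnd1 shares 1100 exonic bases with LTO1 on the other strand, which held 1268 to 1749 counts a library and did not pass the FDR with FG-4592 in either cell type.

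Ccnd2 (chr6:127125162-127152193, minus strand), which encodes cyclin D2, went the other way. It stood at 255.4, 244.3 and 241.9 CPM in vehicle-treated MSCs and at 200.3, 192.7 and 192.4 CPM after FG-4592. In osteocytes it was 199.2, 223.2 and 209.8 CPM with vehicle and 178.1, 171.8 and 181.6 CPM after FG-4592. Treated libraries lay below the vehicle libraries of their cell type without overlap, although FG-4592-treated MSCs overlapped vehicle-treated osteocytes. The log2 fold change was -0.34 in MSCs (SE 0.0492, edgeR FDR 3.83e-05) and -0.25 in osteocytes (SE 0.0493, FDR 0.000561). Ccnd2 was also lower in osteocytes than in MSCs, at -0.23 in vehicle (FDR 0.000962) and -0.14 in FG-4592 (FDR 0.0245). The last of these was lost without FG-4592-treated MSC replicate 1 (FDR 0.0872) or FG-4592-treated osteocyte replicate 1 (0.0632) or 2 (0.119). The difference between the responses was 0.09 (95% interval -0.06 to 0.24, FDR 0.389).

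Ccnd3 (chr17:47505051-47599691, plus strand), the cyclin D3 gene often raised in differentiating cells, had the smallest level of the D-type genes per kilobase in each condition. Its level was 48.3, 49.1 and 51.4 CPM in vehicle-treated MSCs, 51.3, 52.7 and 52.5 CPM with FG-4592 and 52.6, 63.1 and 53.4 CPM in vehicle-treated osteocytes. FG-4592-treated osteocytes, at 68.1, 73.7 and 68.2 CPM, were above all the others. It rose with FG-4592 in osteocytes by 0.31 on the log2 scale (SE 0.0656, edgeR FDR 0.000979), with 0.07 in MSCs (SE 0.0660, FDR 0.433). That contrast between cell types was itself not past the threshold (0.24, 95% interval 0.04 to 0.44, FDR 0.0731), and it passed only without vehicle-treated osteocyte replicate 2 (0.28, FDR 0.0134). Between osteocytes and MSCs Ccnd3 was higher by 0.42 in FG-4592 (FDR 4.01e-05) and by 0.18 in vehicle (FDR 0.0289). The vehicle difference was lost without vehicle-treated MSC replicate 1 (FDR 0.051) or vehicle-treated osteocyte replicate 2 (0.0814), and also with library size alone (0.0838), with no filter (0.0699) and with only the libraries compared (0.0502). Ccnd3 shares 361 exonic bases with the antisense gene Bysl, which fell with FG-4592 (-0.38 in MSCs and -0.95 in osteocytes).

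Per kilobase of exon, the 3 D-type genes together held 85.0 ± 7.01 CPM in vehicle-treated MSCs and 102 ± 9.52 in FG-4592-treated MSCs (SD, n = 3). The sums in osteocytes were 82.9 ± 3.58 with vehicle and 109 ± 4.62 with FG-4592. Ccnd1 made up 62.3% ± 3.03 of this sum in vehicle-treated MSCs and 73.8% ± 1.98 after FG-4592, and 65.3% ± 0.863 and 75.4% ± 1.03 in osteocytes. In each cell type the FG-4592-treated libraries had the larger share of Ccnd1 without overlap, and Ccnd2 gave way from 31.0% to 20.4% in MSCs and from 27.0% to 17.3% in osteocytes. As shares of reads without length scaling, those of Ccnd1 were lower, at 45.6%, 58.8%, 48.9% and 61.0% in the same order.

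Cdk6 (chr5:3341485-3531008, plus strand), the kinase partner of the D-type cyclins, moved in opposite directions in the 2 cell types. It stood at 115.5, 114.3 and 108.2 CPM in vehicle-treated MSCs and at 169.7, 147.1 and 156.0 CPM after FG-4592. Osteocytes had 113.6, 113.0 and 104.1 CPM with vehicle and 100.4, 101.6 and 90.8 CPM with FG-4592. The vehicle conditions overlapped, treated MSCs were above them and treated osteocytes below them. The log2 fold change was 0.48 in MSCs (SE 0.0612, edgeR FDR 9.25e-06) and -0.18 in osteocytes (SE 0.0613, FDR 0.0292), and the difference between these responses was -0.66 (SE 0.0866, FDR 4.24e-05). The fall in osteocytes was lost without vehicle-treated osteocyte replicate 1 (FDR 0.0501) or 2 (0.0547) or FG-4592-treated osteocyte replicate 3 (0.145), and the difference between responses held in each of these fits. The partner kinase gene Cdk4 fell in osteocytes (-0.45) and was at -0.05 in MSCs, where it did not pass the FDR.

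**Figure D2:**
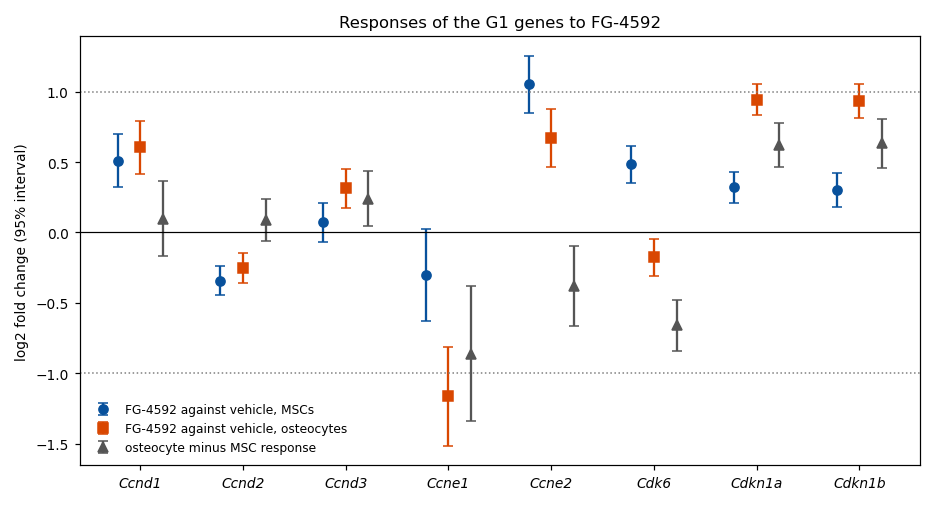
Log2 fold change of the 8 tested G1 genes with FG-4592 against vehicle in MSCs (circles) and osteocytes (squares), and the osteocyte minus MSC response (triangles), with 95% intervals from the edgeR fit and dotted lines at -1 and 1. Cdkn1a and Cdkn1b responded more in osteocytes by 0.62 and 0.63, while Cdk6, at 0.48 and -0.18, crossed 0.

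Ccne1 and Ccne2 encode the E-type cyclins, the partners of CDK2 at the G1/S transition. Ccne1 (chr7:38097984-38107534, minus strand, 11 merged exons) had 12.6, 12.0 and 13.5 CPM in vehicle-treated MSCs and 12.9, 9.13 and 8.90 CPM after FG-4592. Vehicle-treated osteocytes had 6.78, 7.89 and 9.19 CPM, and FG-4592-treated osteocytes had 4.06, 3.70 and 2.89 CPM, below all other libraries. Ccne1 fell with FG-4592 in osteocytes by 1.16 on the log2 scale (SE 0.165, edgeR FDR 2.5e-05). In MSCs the log2 fold change was -0.30 (SE 0.155, FDR 0.143), and replicate 1 of the treated MSCs lay among the vehicle libraries. Without that library the value was -0.49 (FDR 0.0188). The response was larger in osteocytes than in MSCs by -0.86 (SE 0.226, FDR 0.0106). Ccne1 was lower in osteocytes than in MSCs, by -0.67 in vehicle (SE 0.156, FDR 0.00184) and by -1.53 in FG-4592 (SE 0.165, FDR 7.13e-07). It shares no exonic bases with another gene.

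Ccne2 (chr4:11191351-11204779, plus strand, 13 merged exons) rose where Ccne1 did not. Its level was 25.8, 23.3 and 22.4 CPM in vehicle-treated MSCs and 50.1, 50.7 and 47.4 CPM in FG-4592-treated MSCs. In osteocytes it went from 20.7, 17.7 and 19.9 CPM with vehicle to 29.1, 36.2 and 27.5 CPM with FG-4592. No 2 conditions overlapped, with treated MSCs the highest and vehicle-treated osteocytes the lowest. The log2 fold change was 1.05 in MSCs (SE 0.0950, edgeR FDR 2.12e-07) and 0.67 in osteocytes (SE 0.0957, FDR 2.58e-05). The smaller response of osteocytes (-0.38, SE 0.134) had an FDR of 0.0497, and leaving out 1 library took it past 0.05 for 9 of 12 libraries, up to 0.123 without FG-4592-treated osteocyte replicate 3. Between osteocytes and MSCs Ccne2 was lower by -0.68 in FG-4592 (FDR 1.29e-05) and by -0.29 in vehicle (FDR 0.0177). The vehicle difference was lost without vehicle-treated MSC replicate 1 (FDR 0.123) or 2 (0.0541) or vehicle-treated osteocyte replicate 2 (0.124). Ccne2 shares 609 exonic bases with Ints8 on the other strand, and the reads of the pair cannot be separated there. Ints8 held 3436 to 5503 counts a library, and its own log2 fold change with FG-4592 was 0.02 in MSCs (FDR 0.798) and -0.45 in osteocytes (FDR 1.99e-06).

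Per kilobase, the E-type sum was 11.6 ± 0.459 CPM in vehicle-treated MSCs, 18.0 ± 1.14 after FG-4592, and 8.55 ± 0.564 and 10.2 ± 1.43 in osteocytes (SD, n = 3). The share of Ccne1 in it, a measure added after the values were seen, was 41.2% ± 2.60 in vehicle-treated MSCs and 21.4% ± 3.36 with FG-4592. In osteocytes it was 34.9% ± 4.19 with vehicle and 13.1% ± 2.04 with FG-4592. Treated libraries lay below vehicle libraries of both cell types without overlap.

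**Figure D3:**
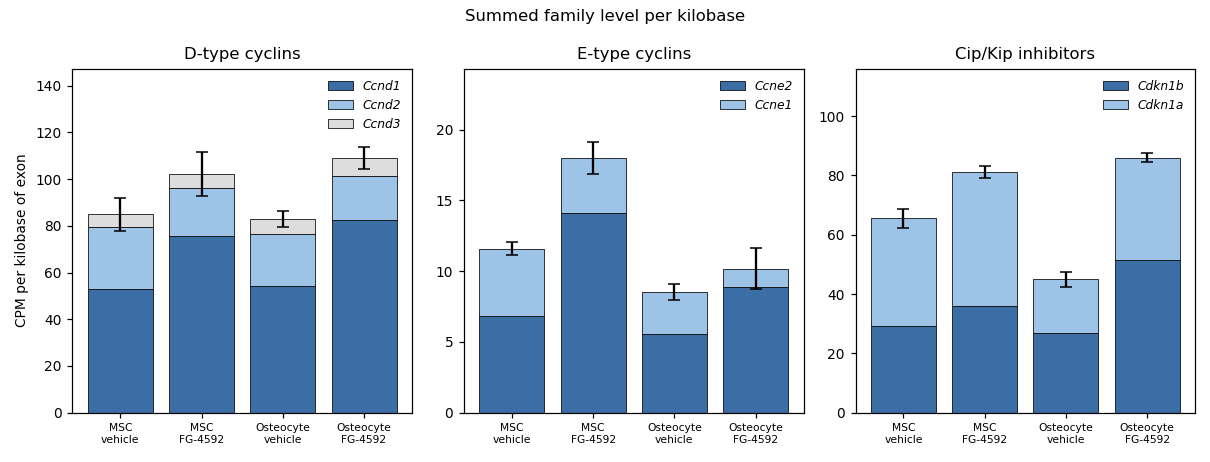
Summed level per kilobase of exon of the D-type cyclins, the E-type cyclins and the Cip/Kip inhibitors in each condition, as stacked means of the genes, in CPM per kilobase on linear axes from 0. Whiskers are the SD of the sum over 3 libraries, and the Cip/Kip sum goes from 44.9 in vehicle-treated osteocytes to 86.0 in FG-4592-treated osteocytes.

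Cdkn1a (chr17:29090976-29100727, plus strand, 4 merged exons) encodes p21, an inhibitor of cyclin-CDK complexes that also binds PCNA. Its level was 136.3, 125.8 and 124.1 CPM in vehicle-treated MSCs and 161.3, 163.5 and 157.6 CPM in FG-4592-treated MSCs. Vehicle-treated osteocytes were lowest, at 60.5, 68.2 and 63.3 CPM, and FG-4592-treated osteocytes had 121.7, 123 and 124.3 CPM. FG-4592-treated osteocytes overlapped vehicle-treated MSCs only at the edge (124.3 against 124.1 CPM), and this pair of conditions was not tested. The log2 fold change with FG-4592 was 0.94 in osteocytes (SE 0.0525, edgeR FDR 4.51e-10) and 0.32 in MSCs (SE 0.0516, FDR 0.000112), a difference of 0.62 (SE 0.0734, FDR 1.5e-05). Osteocytes were below MSCs by -1.01 in vehicle (SE 0.0526, FDR 1.45e-10) and by -0.39 in FG-4592 (FDR 8.54e-06). The vehicle difference lay at the fold cutoff and fell inside it, as far as -0.93, when any of 7 libraries was left out (vehicle-treated MSC replicate 1, 2 or 3, vehicle-treated osteocyte replicate 1 or 3, FG-4592-treated osteocyte replicate 1 or 2), always with an FDR under 0.05. Cdkn1a shares 273 exonic bases with 1700023B13Rik, which had at most 30 counts in a library.

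Cdkn1b (chr6:134920401-134925513, plus strand, 2 merged exons) encodes p27, the inhibitor that accumulates in resting cells. Its level was 139.8, 134.8 and 125.3 CPM in vehicle-treated MSCs and 165.0, 168.9 and 158.4 CPM in FG-4592-treated MSCs. Osteocytes went from 125.9, 129.4 and 112.3 CPM with vehicle to 228.3, 234.2 and 238.7 CPM with FG-4592, the highest of all conditions. The vehicle conditions overlapped (log2 difference -0.12, FDR 0.0913), and this difference passed the FDR only with library size alone (-0.16, FDR 0.0312). With FG-4592 Cdkn1b rose by 0.93 in osteocytes (SE 0.0577, edgeR FDR 1.65e-09) and by 0.30 in MSCs (SE 0.0574, FDR 0.000549), a difference of 0.63 (SE 0.0811, FDR 3.4e-05). In FG-4592 it was higher in osteocytes than in MSCs by 0.51 (FDR 1.19e-06), whereas Cdkn1a was lower. It shares no exonic bases with another gene.

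The Cip/Kip sum per kilobase was 65.5 ± 3.32 CPM in vehicle-treated MSCs and 81.3 ± 2.02 after FG-4592, and 44.9 ± 2.58 and 86.0 ± 1.52 in osteocytes (SD, n = 3). Cdkn1b was 44.7% ± 0.758 of it in vehicle-treated MSCs and 44.3% ± 0.330 in FG-4592-treated MSCs. In osteocytes the share was 59.9% ± 1.93 with vehicle and 59.7% ± 0.278 with FG-4592. This share differed between cell types without overlap, and the means of the 2 treatments within a cell type lay closer than the largest SD. As shares of reads without length scaling they were 50.9%, 50.5%, 65.7% and 65.5% in the same order.

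Stabilised HIF binds DNA at a short core, written here as ACGTG or GCGTG on either strand. Windows of 300 bases, 250 before to 50 after a RefSeq start (GRCm38.p6), were held for 6 of the 10 genes, and 43.8% of all 32851 windows hold a core. The 250 bases before the start are printed for Cdkn1a and Cdkn1b, whose responses differed most upward between cell types, and for Ccne1, which fell most. Capitals mark a core on the printed strand or its reverse complement (CACGT or CACGC).
Cdkn1a, chr17:29090729-29090978, plus strand: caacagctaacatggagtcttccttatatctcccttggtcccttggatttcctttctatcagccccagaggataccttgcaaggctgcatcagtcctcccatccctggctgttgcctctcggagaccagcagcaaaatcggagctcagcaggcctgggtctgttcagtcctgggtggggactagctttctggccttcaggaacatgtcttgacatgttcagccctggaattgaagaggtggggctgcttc
Cdkn1a, chr17:29093519-29093768, plus strand: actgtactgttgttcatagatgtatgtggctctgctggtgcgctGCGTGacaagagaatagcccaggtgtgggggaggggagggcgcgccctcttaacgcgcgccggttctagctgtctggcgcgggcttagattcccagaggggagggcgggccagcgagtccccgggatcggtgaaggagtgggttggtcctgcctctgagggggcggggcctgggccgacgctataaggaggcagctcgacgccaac
Cdkn1b, chr6:134920151-134920400, plus strand: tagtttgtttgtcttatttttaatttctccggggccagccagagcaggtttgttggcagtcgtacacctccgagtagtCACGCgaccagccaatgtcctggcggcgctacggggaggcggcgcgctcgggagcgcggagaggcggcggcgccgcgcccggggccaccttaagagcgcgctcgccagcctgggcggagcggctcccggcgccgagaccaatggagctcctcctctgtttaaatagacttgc
Ccne1, chr7:38107491-38107740, minus strand: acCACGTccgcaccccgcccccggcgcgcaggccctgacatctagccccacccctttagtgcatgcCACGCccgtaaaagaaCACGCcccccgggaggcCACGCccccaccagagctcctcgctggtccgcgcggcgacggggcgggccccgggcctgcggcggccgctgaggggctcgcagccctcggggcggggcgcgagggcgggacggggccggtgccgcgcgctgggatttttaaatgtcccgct
The upstream start of Cdkn1a had 0 cores in its window, its other start 1 and Cdkn1b 1. Ccne1 had 4, a number reached in 3.86% of all windows, and so did the window at chr4:89294570-89294869 of Cdkn2a, a gene with 0 counts, whose other window had 0. The windows of Ccnd3 had 0 and 1. Cdk6 had 3, of which 2 are the overlapping strands of CACGTG. A match is a description of letters and not of binding, and with so common a core most of these counts are near the background.

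Cdkn1c (chr7:143458339-143461050, minus strand), the imprinted gene of p57, had 7 counts in all, 4 in FG-4592-treated MSC replicate 2, 1 in FG-4592-treated osteocyte replicate 1 and 2 in replicate 3. The other 9 libraries had 0. It shares 625 exonic bases with Gm44732, itself at 0 counts. Near it, Nap1l4, Tssc4 and Cd81 were well expressed, while Phlda2, Kcnq1 and Ascl2 had at most 6 counts in a library. Kcnq1ot1, the noncoding RNA of its imprinted domain, had mean levels of 2.66 CPM in vehicle-treated MSCs and 3.09 with FG-4592, and was higher in osteocytes by 0.69 in vehicle and 0.81 in FG-4592. In the neighbouring, separately controlled domain the growth-limiting noncoding RNA H19 was called higher in osteocytes than in MSCs in vehicle (6.58 on the log2 scale), with 55 to 124 counts in vehicle-treated MSCs and 5787 to 10852 in vehicle-treated osteocytes. With FG-4592 osteocytes had 57860 to 72111 counts of H19. Igf2, beside it, was called higher in osteocytes as well (4.77 in vehicle and 5.94 in FG-4592). It had only 1 to 5 counts a library in MSCs and 61 to 181 in osteocytes.

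Cdkn2a (chr4:89274471-89294653, minus strand), the gene of p16 and p19ARF, had 0 counts in all 12 libraries, which allows a level of up to 0.0447 to 0.0545 CPM. Its neighbours were looked at after this was seen. Cdkn2b, the gene of the related inhibitor p15, had at most 2 counts and Mtap, a housekeeping enzyme of methionine salvage, at most 4, both only in FG-4592-treated osteocyte replicate 3. The 7 rows from Mtap to Cdkn2b reached no more than 4 counts in any library. Farther out, Dmrta1 had 57 to 160 counts, and on the other side Klhl9 had 10004 to 15049 and Hacd4 1834 to 4273. Of 40 protein-coding rows within 1000 kb, 6 had more than 10 counts in any library. RNA counts cannot tell a silent locus from a missing one. Of the other INK4 genes, Cdkn2c (p18) and Cdkn2d passed the filter, and Cdkn2c fell with FG-4592 in MSCs (-0.55) and osteocytes (-0.39).

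**Figure D4:**
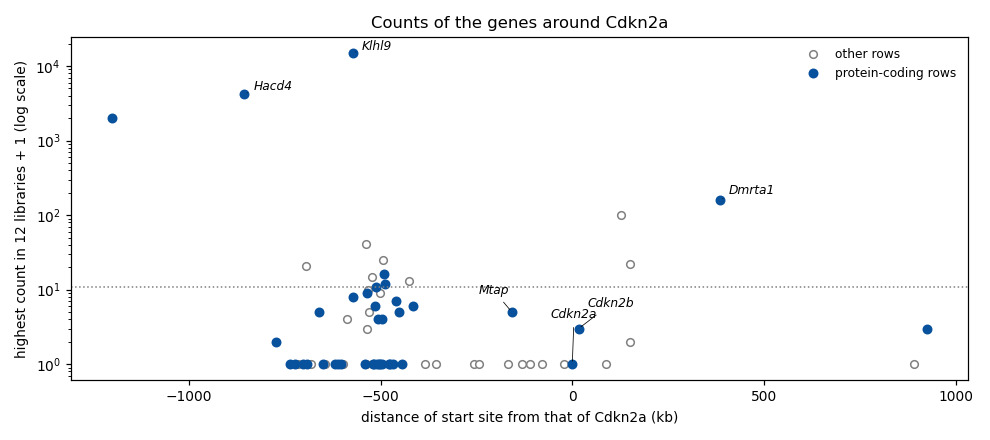
Highest count in the 12 libraries, plus 1 and on a log axis, of each gene within 1000 kb of Cdkn2a, against the distance of its start site from that of Cdkn2a in kb. Filled points are protein-coding, the dotted line marks 10 counts, and Mtap, Cdkn2a and Cdkn2b lie at 4, 0 and 2 counts between Klhl9 and Dmrta1.

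The other genes of the G1/S machinery were followed in a list of 24, of which 23 were tested. With FG-4592 in MSCs 6 rose and 4 fell, near the 38.1% of all genes that passed, and 0 were called in edgeR beside 9.29%. In osteocytes 3 rose and 11 fell beside 21.9% and 22% of all genes, with 2 called beside 10.5%, both lower, E2f2 (-1.12) and E2f8 (-1.22). The mitogen-responsive factor Myc rose in both (0.75 in MSCs and 0.87 in osteocytes). Between osteocytes and MSCs in vehicle 3 were higher and 10 lower (26% and 24.9% of all genes), and E2f7, a repressor that E2F itself induces, was the only gene called (-1.30), beside 15.9%. The retinoblastoma gene Rb1 rose with FG-4592 in MSCs (0.60) and was higher in osteocytes in vehicle (0.88). Between the FG-4592-treated cells 3 were higher and 14 lower (30.5% and 25.3% of all genes), 4 of them called beside 18.3%, led by E2f7 (-2.28) and E2f2 (-1.68). The list median was 0.06 in MSCs and -0.30 in osteocytes with FG-4592, against -0.05 and 0.00 for all genes. For the difference between responses 1 was higher and 8 were lower (13.3% and 11% of all genes), and 0 were called in edgeR beside 5.01%.

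Genes of S phase and mitosis were followed in a list of 20, all tested. FG-4592 lowered 13 and raised 1 (Rrm2, a ribonucleotide reductase subunit, 0.52) in MSCs, beside 20.4% and 17.6% of all genes, with 0 called in edgeR (9.29%) and a median of -0.35 (-0.05 for all genes). In osteocytes it lowered 19 (22% of all genes), with 8 called (10.5%) and a median of -0.87 (0.00 for all genes), led by the uracil glycosylase gene Ung (-1.46) and the topoisomerase gene Top2a (-1.43). In vehicle 17 were lower in osteocytes than in MSCs (24.9% of all genes), 5 of them called (15.9%), with Rrm2 (-1.91) and the mitotic cyclin gene Ccnb2 (-1.72) in front and a median of -0.65. In FG-4592 the median was -1.22, with 18 lower (25.3%) and 14 called (18.3%), again led by Rrm2 (-2.50) and Ccnb2 (-2.00). The response in osteocytes was the lower of the 2 for 11 genes (11% of all genes), with 0 called in edgeR (5.01%) and a median of -0.45. Ccne1 fell with FG-4592 in osteocytes, as 19 of these 20 genes did. In MSCs, where 13 of the 20 fell, Ccne1 did not pass the FDR. Ccne2 and Ccnd1 rose in both cell types.

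Known p53 target genes, other than Cdkn1a itself, moved in both directions. Of 19 tested of 20, FG-4592 raised 1 and lowered 10 in MSCs, beside 17.6% and 20.4% of all genes, with Eda2r (-1.51) and the antiproliferative gene Btg2 (-1.20) called lower (9.29% of all genes called), and the list median was -0.29. In osteocytes 4 rose and 8 fell (21.9% and 22% of all genes), with a list median of -0.04 and 3 called lower (10.5% of all genes called), led by the stress cytokine gene Gdf15 (-2.08) and the kinase gene Plk2 (-1.97). Mdm2, the ubiquitin ligase of p53, had the direction of Cdkn1a in all 4 comparisons. It rose by 0.28 in MSCs and 0.31 in osteocytes, and was lower in osteocytes by -0.22 in vehicle and -0.19 in FG-4592. Tnfrsf10b had these directions as well, though its value in MSCs (0.20) did not pass the FDR. Trp53inp1, Ccng1, Eda2r, Plk2, Gadd45a, Aen and Zmat3 instead fell with FG-4592 in both cell types. In vehicle 4 were higher and 9 lower in osteocytes (26% and 24.9% of all genes), where Cdkn1a was lower too, and the 2 called, Gadd45a (1.18) and Trp53inp1 (1.18), were higher, a share under the 15.9% of all genes. Between the FG-4592-treated cells 9 were higher and 6 lower (30.5% and 25.3% of all genes), with Gadd45a (1.30) and Btg2 (1.05) called higher and Gdf15 (-2.38) called lower, beside 18.3% of all genes called. For the difference between responses 6 were higher and 3 lower (13.3% and 11% of all genes, 5.01% called), with Btg2 (1.45) called higher and Gdf15 (-1.64) and Plk2 (-1.41) called lower.

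**Figure D5:**
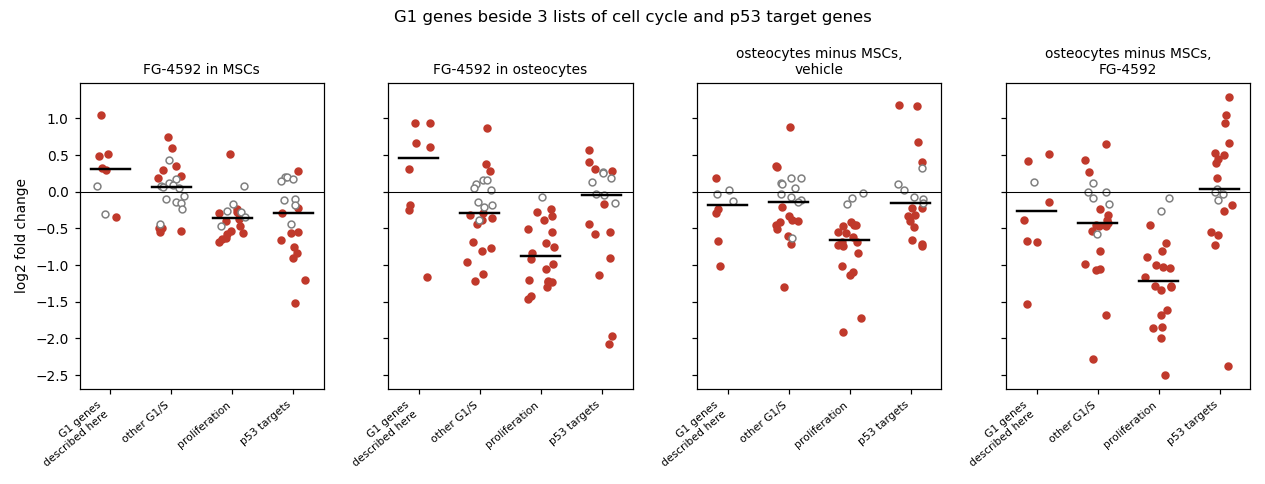
Log2 fold change of the 8 tested G1 genes and of the genes of 3 lists (23 other G1/S, 20 proliferation and 19 p53 target genes) in 4 comparisons. Each point is a gene, filled where its edgeR FDR was under 0.05, and the bar is the median, which for the proliferation genes went from -0.35 with FG-4592 in MSCs to -0.87 in osteocytes.

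Genes that answer ERK and growth factor signals, the inputs to Ccnd1, were mixed. Of 16 tested, FG-4592 raised 7 and lowered 5 in MSCs (17.6% and 20.4% of all genes) and 5 were called (9.29%), with the AP-1 gene Fosl1 (3.42) and Ier3 (2.52) the largest rises and Fos (-1.43) and the feedback inhibitor gene Spry1 (-1.10) the falls that were called. In osteocytes 7 rose and 4 fell (21.9% and 22% of all genes) and 6 were called (10.5%), led by Ier3 (4.03) and Fosl1 (3.29), with Spry4 (-1.26) called lower. In vehicle 9 were higher and 5 lower in osteocytes (26% and 24.9% of all genes), with 6 called higher (15.9% called in all), led by Spry4 (4.44) and the ERK phosphatase gene Dusp6 (2.39). Between the FG-4592-treated cells 11 were higher (30.5% of all genes) and the rest did not pass the FDR. The 7 called (18.3%) were led by Spry4 (3.89) and Fos (2.94). In MSCs Spry4 had only 2 to 10 counts a library. For the difference between responses 8 were higher and 1 lower (13.3% and 11% of all genes, 5.01% called), with Ier3 (1.51) and Fosl2 (1.32) the largest of 5 called.

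The likeness of patterns was measured as Pearson's r of log2 CPM over the 12 libraries among 11252 protein-coding genes, as a description with no test. The genes most like Ccne2 were Rras2, Klf3 and Rap2a (r from 0.986 to 0.992). Cdkn1a was closest to Fam124a, Camk2g and R3hcc1 (0.991 to 0.996), and Cdkn1b to Cited2, Pdk4 and Il6ra (0.983 to 0.985). Ccnd1 was closest to Rc3h1, Cox7a1 and Vopp1 (0.958 to 0.964), Ccnd2 to Eef1akmt1, Dhx58 and Ndufa4 (0.980 to 0.985), and Cdk6 to Cars, Zfp91 and Prkar2a (0.964 to 0.977). None of these is another of the 10 genes. Among the 8 themselves r ran from -0.90 for Ccnd3 with Ccne1 to 0.88 for Ccnd1 with Cdkn1b, over libraries that share 4 conditions.

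Markers of cell types moved with the same comparisons. Of 6 osteocyte markers, Dmp1, Phex and Fgf23 were detected, and Mepe, Sost and Pdpn were at the floor in every condition. Pdpn has 2 rows in the table, and the row read had at most 1 count in a library. The summed level was 1.69 to 3.13 CPM in vehicle-treated MSCs, 0.375 to 0.772 in the treated MSCs, 61.4 to 76.7 in vehicle-treated osteocytes and 6.06 to 7.00 in FG-4592-treated osteocytes. In FG-4592-treated osteocytes Phex (-4.35) and Dmp1 (-2.44) were called lower and Fgf23 (5.81, SE 0.91) higher. Fgf23 had 125, 79 and 98 counts there, 5, 0 and 0 in vehicle-treated osteocytes and 0 to 8 in MSCs. Its mean in vehicle-treated osteocytes (0.0251 CPM) lay under the floor, so that the size of its rise is poorly determined. All 8 osteoblast markers were detected, at 6134 to 6571 CPM in MSCs with vehicle and 7294 to 7457 with FG-4592, and at 7790 to 9656 and 7444 to 9135 in osteocytes. Spp1 and Col1a1 made up most of these sums, and Spp1 rose with FG-4592 in MSCs (0.52). Of the other 6 markers 4 fell with FG-4592 in MSCs (20.4% of all genes) and 6 in osteocytes (22%). Of 6 MSC markers 5 were detected in MSCs (Thy1 was at the floor). The sums in MSCs were 756 to 766 CPM with vehicle and 854 to 875 with FG-4592. In osteocytes they were 714 to 756 and 924 to 953. In vehicle Ly6a was called lower in osteocytes than in MSCs (-1.95) and Nt5e called higher (5.34). Pdgfra was higher there (0.54), and Eng and Cd44 did not pass the FDR. The higher sums with FG-4592 went with Ly6a (0.88 in MSCs and 2.52 in osteocytes), whereas Pdgfra fell in both, Eng and Nt5e fell in MSCs, Nt5e rose in osteocytes (0.80) and Cd44 did not pass the FDR. Of 6 adipocyte markers 5 were detected (Lep was at the floor). They summed to 11.2 to 12.4 CPM in vehicle-treated MSCs and 6.36 to 7.66 in the treated MSCs. The sums were 1842 to 2585 in vehicle-treated osteocytes and 2182 to 2580 in FG-4592-treated osteocytes. With FG-4592 in osteocytes Fabp4 (1.19) was called higher and Cidec (0.62) rose. Plin1 (0.21), Cfd (0.13) and Adipoq (-0.10) did not pass the FDR there. In MSCs Adipoq was called lower with FG-4592 (-1.44), and the other detected markers did not pass. Chondrocyte markers summed to 2.54 to 4.54 CPM in MSCs, 53.9 to 72.8 in vehicle-treated osteocytes and 244 to 334 in FG-4592-treated osteocytes. In osteocytes these sums were almost all Col2a1 (means of 62.7 and 294 CPM), Acan was at the floor in every condition, Col9a1 and Matn1 in all but vehicle-treated osteocytes, and Col10a1 was called lower in osteocytes than in MSCs (-1.54 in vehicle and -1.10 in FG-4592). Summed levels reached 20.2 CPM for blood (Adgre1 and Hbb-bs at the floor), 2.64 for endothelium (Cdh5 and Kdr at the floor) and 8.65 for muscle (Myod1, Myog and Ckm at the floor). The part of any of these cell types in the differences between osteocytes and MSCs, or in the responses to FG-4592, was not tested.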

How the data were processed

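RNA was measured in 12 libraries of 100-base paired reads. Reads were aligned by the authors to mm10 (STAR v2.7.2a), and unique pairs were assigned to Gencode M22 genes in featureCounts (Subread 1.6.2), with mapping quality 10 or above, no strand and each pair given to every gene it overlapped. They deposited these counts per gene without normalization. Overlapping and antisense genes therefore share reads. All count columns were used.

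Genes above 10 counts in 3 or more libraries (16484) were fitted in edgeR 4.0.16 (R 4.3.3) with TMM factors (0.947 to 1.06), 1 coefficient per condition and 8 residual degrees of freedom. The quasi-likelihood test was used with Benjamini-Hochberg adjustment over all genes, and the fit was tested on simulated data. An exact permutation test of 3 against 3 libraries cannot go below p = 0.1. Totals of 52829185 to 68108470 counts set the precision.

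The genes described and the lists were chosen with earlier results of these data known. By rule, the 10 G1 genes, their closest patterns, and from each list the 2 largest called rises and falls were named. The closest patterns of Ccne1 and Ccnd3 are not reported here. Rrm2 and Mdm2 where not called (Mdm2 in all comparisons), Myc, Rb1, Cdk4, Cdkn2c and the genes around Cdkn2a beyond Cdkn2b, Mtap and Dmrta1 were named after their values were seen. So were the p53 target genes set beside Mdm2. Levels per kilobase used the length column of the deposited table. Exonic overlaps came from its exon coordinates (GenomicRanges 1.54.1), promoters from RefSeq. Alternatives were a replicate block, DESeq2 1.42.0, filterByExpr or no filter, RLE factors, upper-quartile factors or none, a fit of the compared libraries alone, removal of genes sharing exonic bases, and each library left out.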

Additional observations from a re-analysis of the deposited data

Results flagged for a closer look

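The response to FG-4592 differed between osteocytes and MSCs for 5 of the 8 tested G1 genes, beside 24.3% of all genes. This was by the interaction contrast in edgeR with an FDR over all genes, and 0 of the 8 were called beside 5.01%. Cdkn1a and Cdkn1b responded more in osteocytes, by 0.62 (FDR 1.5e-05) and 0.63 (FDR 3.4e-05) on the log2 scale, and rose in all 3 treated libraries of each cell type above all vehicle libraries of that cell type. Cdk6 differed by -0.66 (FDR 4.24e-05), since it rose in MSCs and fell in osteocytes. Ccne1 differed by -0.86 (FDR 0.0106) and Ccne2 by -0.38 (FDR 0.0497), the last at the threshold and lost with filterByExpr (FDR 0.0502) or a replicate block (0.0568).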

How the results depend on the processing

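Of 802 values of single genes under alternatives, 766 kept direction and side of the FDR threshold, 25 lost it, 4 gained it and 7 changed sign. Sign changes were all in values past no threshold. With library size alone Ccnd3 was at -0.014 with FG-4592 in MSCs, and Ccnd1 at -0.0066 between the vehicle conditions. With each library left out, Ccnd1 between the vehicle conditions ran from -0.031 (without vehicle-treated MSC replicate 3) to 0.14, Cdk6 from -0.032 to 0.017 (above 0 without vehicle-treated MSC replicate 1 or 2 or vehicle-treated osteocyte replicate 3), and the response difference of Ccnd1 from -0.025 (without vehicle-treated MSC replicate 2) to 0.20. The number called with FG-4592 in MSCs was 0 with library size alone, where Ccne2 was at 0.97, and 0 between the vehicle conditions with only the libraries compared. Without genes that share exonic bases, which leaves only Ccne1 and Cdkn1b of the G1 genes, these numbers were 0 and 0, and 1, 2, 1, 2 and 2 passed the FDR with FG-4592 in MSCs and osteocytes, between cell types in vehicle and in FG-4592, and for the difference between responses. With each library left out the number called was 0 to 1 between the vehicle conditions and 0 to 1 for the difference between responses (1 without vehicle-treated osteocyte replicate 1), and the numbers past the FDR were 6 to 7, 7 to 8, 3 to 5, 6 to 7 and 4 to 6. Without length scaling the share of Ccnd1 was 45.6%, 58.8%, 48.9% and 61.0% and that of Cdkn1b 50.9%, 50.5%, 65.7% and 65.5%, in the order of the text. The causes were not tested beyond the smaller sets of genes or libraries.

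Same-numbered libraries did not deviate together over all tested genes (r from -0.0528 to 0.0543). This shows no pairing by number but cannot exclude one. With the replicate block the difference between the responses of Ccne2 was -0.39 (edgeR FDR 0.0568), and the block changed no other call on these genes. With filterByExpr the same Ccne2 value was -0.38 (FDR 0.0502). Cdkn1c and Cdkn2a were under the filter and were not tested. Only mRNA was measured, with neither protein nor cell number.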
